A study of Mus musculus with 77 samples.

Results

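Pancreatic ductal organoids that expressed a phosphorylation-site mutant of Ngn3, named 6S-A, for 2 days were compared with organoids that expressed WT Ngn3 for the same time. The comparison held 36 of the 77 libraries of the series, 18 of WT Ngn3 and 18 of 6S-A Ngn3, chosen by their group and day labels. In each group the 18 libraries were 6 technical repeats of each of 3 biological replicates, each library was a pool of 50 cells, and all were at passage 2. The organoids were grown from ducts of adult C57BL/6 mice and infected with a lentiviral Tet-on system, so that an HA-tagged Ngn3, preceded by GFP and a self-cleaving 2A peptide, was made upon induction. GFP-positive cells were sorted, so both groups held only cells that expressed the transgene strongly enough to pass the gate. A GFP only group of 18 libraries, from organoids infected with GFP and also induced for 2 days, gave the level without the Ngn3 transgene. WT and 6S-A libraries after 8 days of induction gave values in other cells.

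Ngn3, encoded by Neurog3, is the basic helix-loop-helix factor that starts endocrine differentiation in the pancreas. It pairs with E proteins on E-boxes, DNA motifs of the form CANNTG, and turns on a first set of transcription factors that in turn bring on the genes of hormone-secreting cells. Ductal cells do not normally become endocrine in the adult, and they carry keratins, claudins, mucins and the channels and exchangers that make bicarbonate-rich fluid. Serines followed by proline are sites for cyclin-dependent kinases. In 6S-A Ngn3 each of the 6 serine-proline pairs of the protein has alanine in place of the serine. These 6 are all the serine-proline pairs that the mouse Neurog3 coding sequence holds (214 codons in 1 exon, plus strand of chromosome 10, GRCm38, in the GENCODE M21 annotation).

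The stretches around the changed codons are shown because they are the only designed difference between the groups. Each is the reference sequence of mouse Neurog3 (chr10:62133090-62134763), 5′ to 3′, with the serine codon and the proline codon after it in capitals, and each is named by its substitution, counted from the first methionine. The codons used for alanine in the vector are not given in the sources used here.
S14A: atccaagtgTCCCCAgagacacaa
S38A: accccacctAGCCCCactctcata
S160A: gagctggggAGCCCCggaggtggc
S174A: tctatctacTCCCCAgtctcccaa
S183A: ggtaacctgAGCCCCacggcctca
S199A: gtgcccagcTCCCCAtcctatctg

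The WT and 6S-A libraries held between 1501002 and 5424097 reads on genes and between 16440 and 18878 detected genes, and spike-in RNA took at most 0.292% of them. Summed over technical repeats, a biological replicate held between 17757303 and 23684049 reads, so that 3 reads corresponded to at most 0.169 CPM (read counts scaled to library size). Neurog3 stood at 220, 95.5 and 112 CPM in the 3 WT replicates and at 212, 124 and 107 CPM in the 3 6S-A replicates, and at no more than 0.0770 CPM in GFP only. The log2 difference between 6S-A and WT was 0.08 ± 0.09 (SE, adjusted p = 0.920, edgeR), and in single pools the level ran from 31.4 to 402 CPM in WT and from 44.2 to 271 CPM in 6S-A. Transcripts of the transgene and of the endogenous gene were counted together.

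Ductal markers were detected in both groups, although some, Krt19 and Krt18 among them, were lower in 6S-A and are described with their list. Krt7, a keratin of ducts, was at 1308 to 1435 CPM in WT and at 1230 to 1377 CPM in 6S-A, and Krt8, Epcam, Sox9 and Spp1 were present in every replicate and did not pass the test. Cftr, the chloride channel of ducts, was low, between 1.52 and 8.62 CPM. Markers of other cells were low apart from Cd14. The 10 acinar genes tested summed to 6.41 to 7.09 CPM in WT and 8.40 to 11.5 CPM in 6S-A, with 10 of 23 listed genes at 0 reads in both, Cpa1, Prss1 and Pnlip among them. Mesenchymal genes summed to 14.6 to 19.7 and 17.1 to 24.0 CPM, with Col3a1 at 0, and endothelial genes to 14 to 20.6 and 13 to 20.7 CPM. Immune genes summed to 132 to 163 CPM in WT and 81.5 to 114 CPM in 6S-A, most of it Cd14. Of the other 6 immune genes tested, Cd68 was at a mean of 6.20 CPM, Itgam at 1.08 CPM and Csf1r at 0.636 CPM over the 6 replicates, Ptprc, Cd79a and Fcer1g were at 0.174 CPM or less, and 3 of 17 listed genes (C1qb, Cd3e and Tyrobp) had 0 reads.

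After 2 days, Krt19, Krt18, 4 claudins and the anion transporter Slc26a9 were among the genes lower with 6S-A than with WT Ngn3, and a smaller group, with Hes6, Cbfa2t3, Pcsk1 and Gng4 among it, was higher. Of 23844 genes tested with same-numbered replicates as a block, 147 were called at an adjusted p under 0.05 (0.617%). Of these, 50 were higher (0.21%) and 97 lower (0.407%) in 6S-A, and 146 of the 147 differed in the same direction in each of the 3 pairs. The exception was Crisp1, which had 0 reads in replicate 2 of both groups. On data simulated for this design with gene-wise spread, unchanged genes made up more of the calls than the threshold allows, so the adjusted p-values given here may be too small. The changes were small: 118 of the 147 were under 2-fold, and the median size was 1.57-fold. The replicates of the 2 groups did not overlap for 121 of the called genes, against 10.6% of all genes tested. This count and that of the pairs come from the values behind the calls and are not separate evidence for them. The calls rest on the pairing: without the block only Sorcs2, Zfp185 and Pik3ap1 were called, although 138 of the 147 kept an unadjusted p under 0.05. With 1 technical repeat of each replicate alone, 69 genes were called, 9 of them among the 147.

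**Figure D1:**
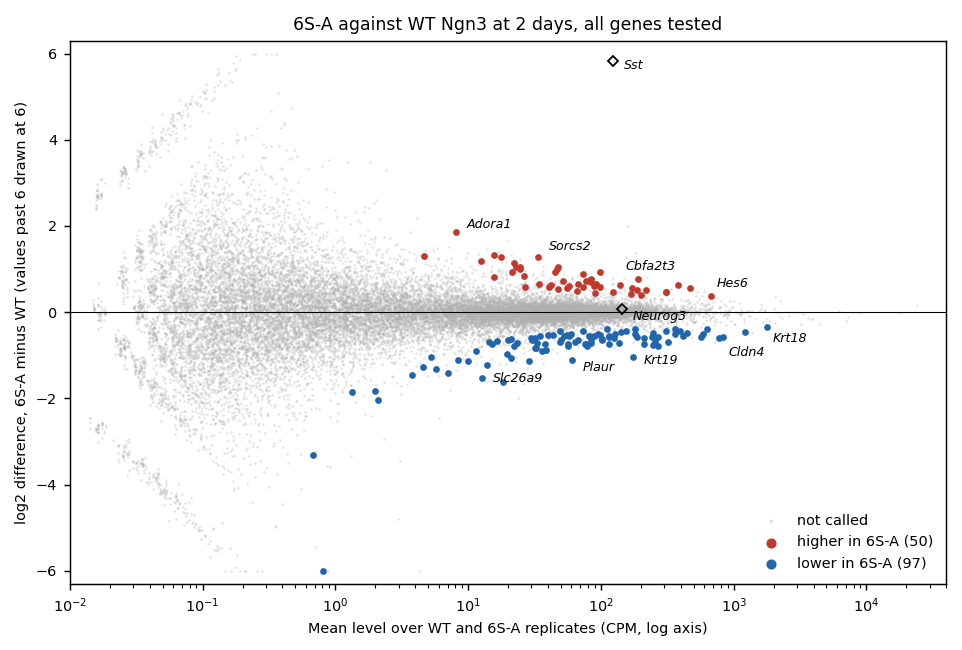
Log2 difference between 6S-A and WT Ngn3 at 2 days (vertical axis) against the mean level over the 6 replicates (horizontal axis, CPM, log scale); each point is 1 gene, grey not called, red higher (50) and blue lower (97) in 6S-A, and open diamonds mark Sst and Neurog3, which were not called; differences past 6 are drawn at 6. Called genes sit mostly above 10 CPM and within a few fold of 0, while the large differences at the left belong to genes near the detection floor.

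Keratins and surface markers of ducts held the largest share of lower genes among the lists compared. Of 23 such genes tested, 6 were lower in 6S-A, none was higher and 17 did not pass, with 19 of 23 below 0 and a median log2 difference of -0.27, near 0 for all genes. Of all genes tested, 0.407% were called lower, 0.21% higher, and 49.9% lay below 0. Krt19, the keratin most used to mark pancreatic ducts, was at 166, 260 and 281 CPM in WT and at 87.7, 114 and 139 CPM in 6S-A, a log2 difference of -1.04 ± 0.14 (SE, n = 3 per group, adjusted p = 0.0130, edgeR). Every 6S-A replicate lay below every WT replicate, and GFP only was at 620.5 to 720 CPM. In single pools the level ran from 34.6 to 241 CPM, with a median of 129, in 6S-A and from 99.45 to 465 CPM, with a median of 220, in WT. Krt18, the partner keratin of Krt8 in simple epithelia, fell less, from 1959, 2037 and 2032 CPM to 1432, 1636 and 1679 CPM (log2 difference -0.35 ± 0.07, adjusted p = 0.0323). Krt19 and Krt18 were thus lower while Krt7 differed by -0.08 ± 0.08 and Krt8 by -0.15 ± 0.07 on the log2 scale.

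The other lower surface markers were Muc1, Anxa3, S100a6 and the claudin Cldn4, which is described with the junction genes. Muc1, a mucin of the apical membrane, was at 231, 215 and 219 CPM in WT and 152, 170 and 128 CPM in 6S-A (-0.57 ± 0.11, adjusted p = 0.0347). Anxa3, a calcium-dependent membrane-binding annexin, went from 658 to 721 CPM down to 440 to 494 CPM (-0.57 ± 0.07). S100a6, a small calcium-binding protein, went from 628 to 783 CPM down to 480 to 595 CPM (-0.39 ± 0.07). In none of these genes did the groups overlap, and in each of them GFP only lay above WT. Among transcription factors of ductal cells, 1 of 19 was lower, Klf5, a zinc-finger factor of epithelial progenitors, at 80.9, 100 and 109 CPM in WT and 53.3, 67.4 and 76.2 CPM in 6S-A (-0.56 ± 0.09). Sox9, a factor of the ductal lineage, had a log2 difference of -0.12 ± 0.10, and Ehf had -0.39 ± 0.08 with an adjusted p of 0.0546. The list as a whole had a median of -0.28, with 15 of 19 members below 0. Over all genes tested 49.9% lay below 0 and 0.407% were called lower.

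**Figure D2:**
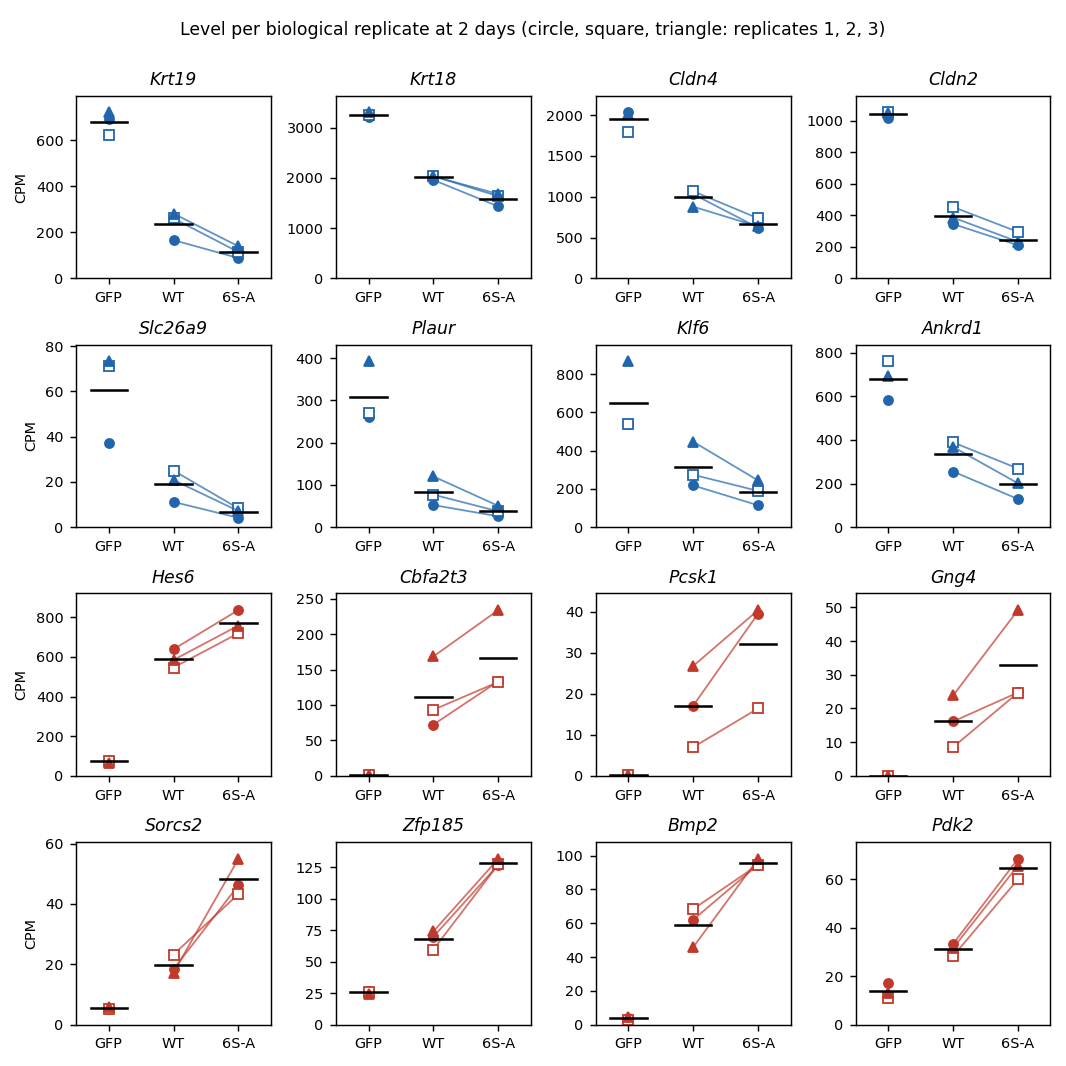
Level (CPM, vertical axes from 0) in GFP only, WT and 6S-A Ngn3 at 2 days for 8 lower and 8 higher genes; points are the 3 biological replicates, black bars their means, and lines join same-numbered WT and 6S-A replicates. Every line falls in the upper rows and rises in the lower rows, as these genes were picked from those called. In the upper rows all GFP only points lie above the 6S-A points, and in the lower rows all lie below the WT points.

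Claudins seal the tight junctions between epithelial cells. In the list of tight and gap junction genes, 4 of 24 were lower, none was higher and 20 did not pass, with 8 of the 24 above 0. Of all genes tested 0.407% were called lower, 0.21% higher, and 50.1% lay above 0. The 4 lower genes were the claudins Cldn2, Cldn3, Cldn4 and Cldn7. Cldn2, a pore-forming claudin of leaky epithelia, was at 344, 452 and 385 CPM in WT and 210, 294 and 232 CPM in 6S-A (-0.69 ± 0.08, adjusted p = 0.00375, edgeR), with GFP only at 1017 to 1052 CPM. Cldn4 was at 1031, 1067 and 878 CPM in WT and 620, 735 and 635 CPM in 6S-A (-0.58 ± 0.09, adjusted p = 0.0116). Cldn7 differed by -0.48 ± 0.08 and Cldn3 by -0.43 ± 0.07. None of these 4 genes had overlapping groups. Of the cadherin and delamination genes, 3 of 26 were lower. They were Cdh6 (-0.79 ± 0.11), a type II cadherin first known from kidney, and a pair that act in apical polarity, Pard6b (-0.75 ± 0.12) and the atypical protein kinase C Prkci (-0.51 ± 0.09).

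Genes of duct fluid secretion changed in both directions, 3 of 24 lower and 1 higher, against 0.407% and 0.21% of all genes tested. Slc26a9, a chloride channel and anion transporter of the apical membrane, had the smallest p of all genes. Its level was 11.2, 25 and 20.8 CPM in WT and 4.11, 8.29 and 7.11 CPM in 6S-A, a log2 difference of -1.53 ± 0.13 (adjusted p = 0.000371, edgeR), and GFP only stood at 37.3 to 73.3 CPM. Slc4a4, the sodium-bicarbonate cotransporter of the basolateral membrane, was at 103 to 140 CPM in WT and 69.7 to 87.8 CPM in 6S-A (-0.62 ± 0.09). The calcium-activated potassium channel Kcnn4 was at 34.0, 42.6 and 42.2 CPM in WT and 11.7, 19.5 and 24.0 CPM in 6S-A (-1.13 ± 0.18). Kcne3, a potassium channel subunit of secretory epithelia and among the 15 largest decreases, differed by -1.63 ± 0.19, with overlapping groups, since 6S-A replicate 2 at 13.4 CPM exceeded WT replicate 1 at 12.5 CPM. Atp1b1, the β-subunit of the sodium pump, was higher, at 98.7 to 112 CPM in WT and 128 to 152 CPM in 6S-A (0.46 ± 0.09, adjusted p = 0.0418).

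Some immediate early genes and targets of the YAP/TEAD pathway were lower. In the first list 3 of 26 members were lower, none was higher and 23 did not pass, with a median of -0.21 and 5 members above 0. In the second 3 of 24 were lower, none was higher and 21 did not pass, with a median of -0.25 and 5 members above 0. Of all genes tested 0.407% were called lower, 0.21% higher, and 50.1% lay above 0. At an unadjusted p under 0.05 (edgeR), 14 of the 26 and 14 of the 24 were lower, and 1 and 0 higher. Over all genes tested 5.06% were lower and 4.18% higher at that p. Klf6 was at 218, 274 and 447 CPM in WT and 114, 189 and 244 CPM in 6S-A (-0.77 ± 0.11, adjusted p = 0.0102, edgeR), where replicate 3 was highest in both groups and the groups overlapped. Dusp1, a phosphatase of MAP kinases, was at 596, 647 and 820 CPM in WT and 395, 497 and 561 CPM in 6S-A (-0.51 ± 0.08). Myc, which drives growth, differed by -0.60 ± 0.11, most in replicate 1, where it was at 113 CPM in WT and 57.6 CPM in 6S-A. Ankrd1, a transcript widely used as a readout of YAP, was at 255, 389 and 368 CPM in WT and 129, 269 and 201 CPM in 6S-A (-0.79 ± 0.11, adjusted p = 0.00652). F3, tissue factor, differed by -0.61 ± 0.11 and Gadd45b, which also stands among the Cdk inhibitor genes, by -0.45 ± 0.09. The growth factor Hbegf, at 221 to 299 CPM in WT and 137 to 216 CPM in 6S-A, did not pass (-0.42 ± 0.10, adjusted p = 0.0765). In the FGF, EGF and Ras feedback list none of 30 genes was called, and 23 of the 30 lay below 0. At an unadjusted p under 0.05, 13 of these 30 were lower and 2 higher.

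Receptors of the cell surface and the matrix made up further lower genes. Plaur, the urokinase receptor, was at 52.2, 76.8 and 120 CPM in WT and 25.5, 37.4 and 50.2 CPM in 6S-A (-1.11 ± 0.11, adjusted p = 0.00145, edgeR). Itga2, a collagen-binding integrin, differed by -0.64 ± 0.10, and Plaur and Itga2 were the 2 lower of 33 integrin, laminin and matrix genes. The ephrin receptors Epha4 (-0.73 ± 0.14) and Epha2 (-0.47 ± 0.09) were the 2 lower of 43 axon guidance genes. Of all genes tested 0.407% were called lower. Pik3ap1, an adaptor that recruits PI3-kinase, was at 20.2, 19.2 and 19.4 CPM in WT and 7.04, 10.3 and 7.83 CPM in 6S-A (-1.24 ± 0.14, adjusted p = 0.00225, and 0.0163 without the block). Cd14, a co-receptor for lipopolysaccharide that is a marker of myeloid cells and the 1 lower of 7 immune genes tested, was at 126 to 153 CPM in WT, 73.5 to 105 CPM in 6S-A and 539 to 549 CPM in GFP only (-0.56 ± 0.11). None of the other 6 immune genes was called, and the part of other cells in the Cd14 level was not tested.

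The remaining large decreases were of genes at lower levels. Adgrg2 (-2.04 ± 0.38), the histone deacetylase Hdac9 (-1.86 ± 0.38), the interferon-inducible Ifi205 (-1.83 ± 0.36), the glucuronosyltransferase Ugt2b34 (-1.47 ± 0.24), Creb5 (-1.41 ± 0.25), the annexin Anxa13 (-1.31 ± 0.21) and S100a14 (-1.27 ± 0.26) all stood under 12 CPM in every WT replicate. The serpin Serpinb5 (-1.13 ± 0.21), Pxdc1 (-1.11 ± 0.17) and Kitl (-1.05 ± 0.15), the ligand of the receptor Kit, were at 10.9 to 17.0, 9.62 to 12.9 and 25 to 33.2 CPM in WT. Clcf1, a cytokine of the interleukin-6 family (-0.75 ± 0.09), and Filip1l (-0.64 ± 0.08) were among the 10 genes with the smallest p. In lists where 1 gene passed, it was the doublecortin-like kinase Dclk1 among 29 pan-neuronal genes (-0.87 ± 0.15), the inducible Hsp70 gene Hspa1a among 16 heat shock genes (-1.05 ± 0.20), Muc1 again among 15 trefoil factor and mucin genes and the glucose transporter Slc2a1 among 30 genes of glycolysis and hypoxia (-0.50 ± 0.09). Dclk1 ran against its list, in which 23 of 29 genes lay above 0 with a median of 0.43, and 9 were higher and 2 lower at an unadjusted p under 0.05, against 4.18% and 5.06% of all genes tested. Hspa1a has a near-identical neighbouring copy and its reads may be shared with it, and Ifi205 and Ugt2b34 belong to families of close paralogs. Crisp1 and Ppargc1b, singled out after their values were seen as the 2 called genes under 1 CPM, rest on few reads. Crisp1 had 104 reads in WT, none of them in replicate 2, and 0 reads in 6S-A. Its WT mean was 31.5-fold above a floor of 3 reads over the 6S-A group, which does not hold for replicate 2. In GFP only Crisp1 was at 0.0385, 0 and 0.150 CPM. Ppargc1b was at 0.636, 1.45 and 1.64 CPM in WT and at most 0.165 CPM in 6S-A.

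Among early targets of proneural factors, 2 of 19 genes were higher in 6S-A, none was lower, and 18 of the 19 lay above 0, with a median log2 difference of 0.48. Over all genes tested 0.21% were called higher and 50.1% lay above 0. Hes6, a helix-loop-helix factor that opposes Hes1, was at 638, 546 and 584 CPM in WT and 836, 719 and 757 CPM in 6S-A (0.39 ± 0.08, adjusted p = 0.0396, edgeR), without overlap, and at 64.9 to 80.7 CPM in GFP only. Its pools ran from 435 to 746 CPM in WT and from 594 to 1000 CPM in 6S-A. Cbfa2t3, a corepressor of the ETO family, was at 72.4, 93.3 and 168 CPM in WT and 133, 132 and 234 CPM in 6S-A (0.62 ± 0.11, adjusted p = 0.0185), with replicate 3 highest in both groups and the groups overlapping. GFP only held at most 1.15 CPM of it.

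The 7 genes that the study follows as markers of Ngn3 action did not pass the test, although some of them did in other fits. Sst was called by DESeq2 (adjusted p = 0.000307), Dll1 with only WT and 6S-A in the fit (adjusted p = 0.021, edgeR) and Cdkn1a with no filter on low counts (adjusted p = 0.0387, edgeR). Without WT replicate 3, the highest WT replicate for Neurod1, Rfx6 and Sst, these 3 were called by edgeR (adjusted p = 0.0165, 0.0205 and 3.42e-11), and Neurod1 also without 6S-A replicate 3 (adjusted p = 0.0492). Neurod1, the next helix-loop-helix factor in the endocrine cascade, was at 48.6, 23.7 and 147 CPM in WT and 74.5, 55.1 and 104 CPM in 6S-A (0.42 ± 0.30), so that its level varied more between WT replicates than between the groups. Insm1 was at 68.0, 90.2 and 216 CPM in WT and 131, 114 and 226 CPM in 6S-A (0.44 ± 0.19). Rfx6 was at 44.7, 16.2 and 104 CPM in WT and 87.1, 61.8 and 87.5 CPM in 6S-A (0.84 ± 0.43). Atoh8 was nearly level, at 8.94 to 14.2 and 11.9 to 13.4 CPM (0.10 ± 0.22). Dll1, the Notch ligand that endocrine precursors show to their neighbours, was at 41.9, 40.6 and 27.1 CPM in WT and 76.5, 56.4 and 70.2 CPM in 6S-A, without overlap but with a log2 difference of 0.90 ± 0.34 and an adjusted p of 0.496. Cdkn1a, the Cdk inhibitor p21, was at 739, 734 and 1097 CPM in WT and 909, 990 and 1136 CPM in 6S-A (0.26 ± 0.08, adjusted p = 0.258). Sst, the hormone of delta cells, had the widest spread: 0.297, 0.223 and 16 CPM in WT and 178, 459 and 91.3 CPM in 6S-A. Its log2 difference of 5.83 ± 1.64 had an adjusted p of 0.399, and in 6S-A pools it ran from 0.248 to 3099 CPM with a median of 23.6, a level set by a few of the pools.

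Secretory genes were represented by 1 call. Pcsk1, the convertase that cuts prohormones, was the 1 higher of 17 granin and prohormone processing genes, at 17.2, 7.03 and 26.8 CPM in WT and 39.6, 16.5 and 40.5 CPM in 6S-A (1.00 ± 0.17, adjusted p = 0.0212, edgeR). Replicate 2 was lowest in both groups, which made the groups overlap, and GFP only was at 0.115 to 0.150 CPM. Chga, chromogranin A of secretory granules, was at 102, 43.8 and 242 CPM in WT and 276, 175 and 243 CPM in 6S-A and did not pass (1.11 ± 0.49). None of 10 hormone and serotonin genes, 28 exocytosis genes or 18 islet lineage transcription factors was called. The hormone list had a median of 0.87 with 7 of 10 above 0, and the granin list 0.66 with 13 of 17 above 0. At an unadjusted p under 0.05 (edgeR), 4 hormone, 5 granin and 7 exocytosis genes were higher, and 0, 2 and 0 lower. The exocytosis list had a median of 0.40 with 24 of 28 above 0, and Syt13, a synaptotagmin of endocrine precursors, was at 149, 105 and 244 CPM in WT and 282, 259 and 296 CPM in 6S-A (0.81 ± 0.24, adjusted p = 0.336). Ghrl, encoding ghrelin, varied without order, at 201, 57.9 and 71.5 CPM in WT and 38.8, 168 and 606 CPM in 6S-A. Of 18 islet factors 10 lay above 0, with a median of 0.12, and 1 was higher and 4 lower at an unadjusted p under 0.05. Over all genes tested 4.18% were higher and 5.06% lower at that p. Foxa2 was at 0.15 ± 0.10 and Hhex at -0.39 ± 0.10. Tubb3, the neuronal tubulin, was at 71.0, 51.4 and 97.6 CPM in WT and 131, 130 and 155 CPM in 6S-A (0.96 ± 0.30, adjusted p = 0.366), and Map1b differed by 0.32 ± 0.09.

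Genes of signalling pathways were also among those higher in 6S-A. Gng4, a G protein γ-subunit, had 0 reads in GFP only, 16.2, 8.53 and 23.9 CPM in WT and 24.8, 24.7 and 49.2 CPM in 6S-A (1.05 ± 0.19, adjusted p = 0.0334, edgeR), and was the 1 called of 38 G protein and Rgs genes. In the TGF-beta and BMP list 2 of 36 genes were higher and none lower, against 0.21% and 0.407% of all genes tested. Bmp2, a BMP ligand, was at 62.1, 68.4 and 45.9 CPM in WT and 94.7, 94.6 and 98.1 CPM in 6S-A (0.71 ± 0.14), and Tgfbr1, the type I receptor for TGF-beta, at 121, 131 and 215 CPM in WT and 196, 184 and 273 CPM in 6S-A (0.51 ± 0.08). Kcnk1, a potassium channel, was the 1 called of 37 genes in a list of voltage-gated and potassium channels (0.39 ± 0.08), which does not hold Kcnn4 and Kcne3, the potassium channel genes that were lower. That list had a median of 0.52 with 31 of 37 above 0, and the calcium channel Cacna1h, at 38.7, 38.9 and 57.3 CPM in WT and 78.7, 68.9 and 82.2 CPM in 6S-A, had an adjusted p of 0.0556. Among 12 Notch ligand and fringe genes and 15 Notch receptor and effector genes none was called. Above 0 lay 10 of the 12 and 10 of the 15, with medians of 0.43 and 0.03. At an unadjusted p under 0.05 (edgeR), 5 of the 12 were higher and 1 lower, and of the 15, 1 was higher and 1 lower. Over all genes tested 4.18% were higher and 5.06% lower at that p. The 2 most abundant examples lay below 0. These were Hes1, which differed by -0.16 ± 0.09, and Jag1, by -0.25 ± 0.10.

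Most of the 15 largest increases among called genes were of genes in none of the 42 pathway and cell type lists, which held Pcsk1 and Gng4. Of these 15, the study's own list held Lrrn2, Cemip, Clip3 and Gsg1l beside Pcsk1 and Gng4. Sorcs2, a sorting receptor of neurons, was at 18.4, 23.3 and 17.3 CPM in WT and 46.2, 43.3 and 54.9 CPM in 6S-A (1.29 ± 0.15, adjusted p = 0.00271, and 0.0163 without the block). Zfp185, an actin-associated LIM protein, was at 70.0, 59.8 and 74.2 CPM in WT and 127, 127 and 132 CPM in 6S-A (0.92 ± 0.09, adjusted p = 0.00145, and 0.0163 without the block). Pdk2, a kinase that restrains pyruvate dehydrogenase, was at 33.4, 28.3 and 31.6 CPM in WT and 68.4, 60.0 and 65.6 CPM in 6S-A (1.06 ± 0.11). In these genes replicates lay close together and apart from those of the other group. Adora1, the A1 adenosine receptor, had the largest log2 difference of the called higher genes, 1.86 ± 0.36, but an uneven one, at 2.92, 4.96 and 2.38 CPM in WT and 18.9, 14.9 and 4.79 CPM in 6S-A. Prex1, an activator of Rac, was at 53.2 to 70.4 and 95.1 to 116 CPM (0.78 ± 0.09).

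Other genes with large increases were Lrrn2 (1.34 ± 0.27), Nudt10 (1.31 ± 0.27), the hyaluronan-binding Cemip (1.28 ± 0.21), the actin cross-linker Flnc (1.19 ± 0.17), AI464131 (1.14 ± 0.19), the cytoskeletal linker Clip3 (1.05 ± 0.19), Gsg1l (1.00 ± 0.13), the tubulin-binding Tppp3 (0.94 ± 0.17) and the sialyltransferase St6galnac4 (0.94 ± 0.16). Gsg1l, an auxiliary subunit of AMPA receptors, was at 40.1, 38.7 and 16.1 CPM in WT and 77.9, 70.9 and 36.2 CPM in 6S-A, so that its replicates overlapped while each pair rose. Lrrn2, Cemip, Clip3 and Gsg1l stood at no more than 1.12 CPM in any GFP only replicate, whereas Flnc was at 7.66 to 14.4 CPM in GFP only and 5.81 to 11 CPM in WT. Of the 50 higher genes, 13 belonged to the 200 genes that the study drew up as raised by Ngn3 at 2 days, and no gene of that list was called lower. In that list 192 of 200 genes lay above 0 and 8 below, with a median of 0.59, and 90 were higher at an unadjusted p under 0.05, against 50.1% above 0 and 4.18% higher at that p of all genes tested. The list was chosen on these libraries and is not independent evidence of a direction.

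**Figure D3:**
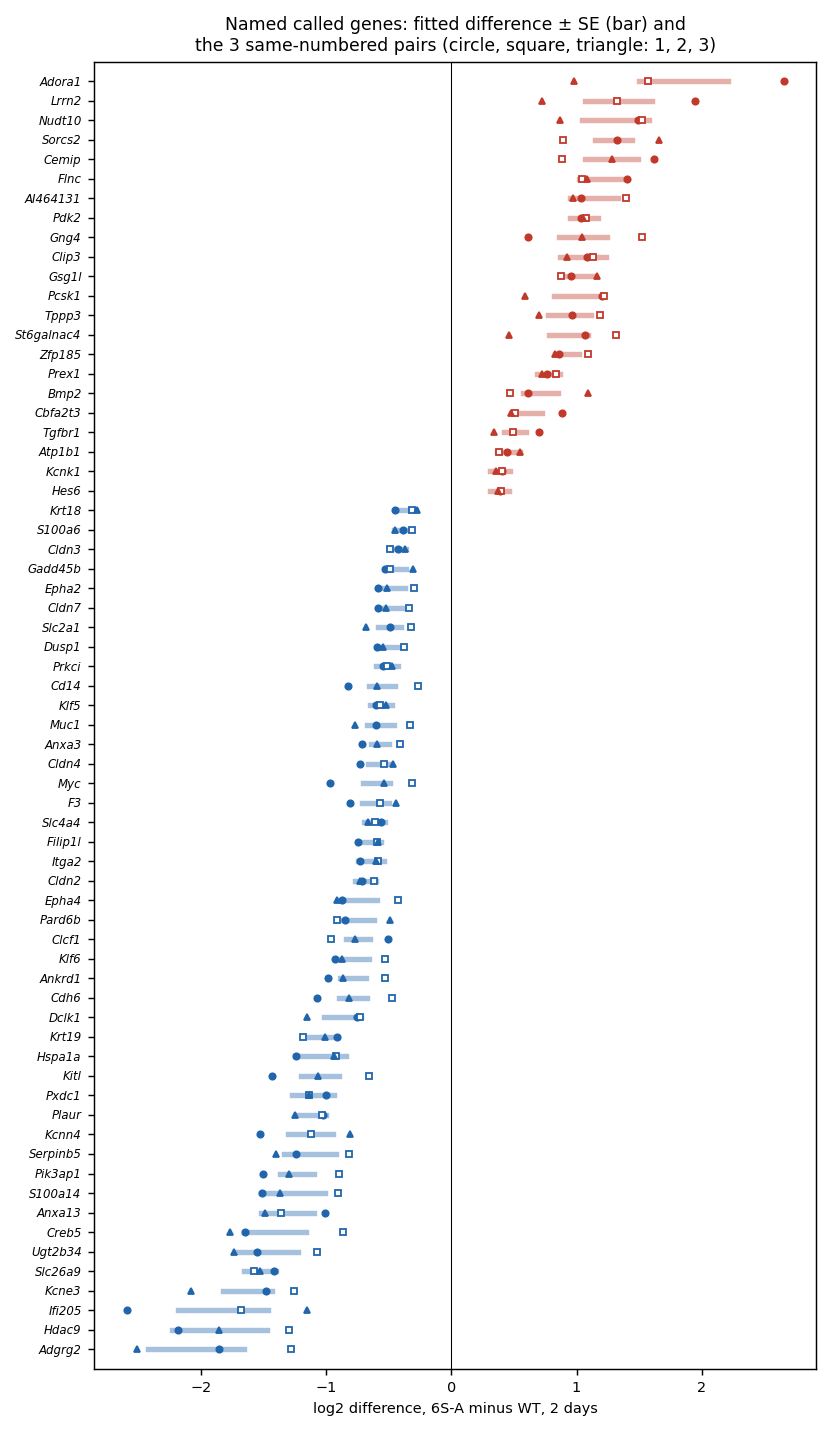
Log2 difference between 6S-A and WT Ngn3 for 66 named called genes; wide bars span the fitted value ± SE, and circle, square and triangle are the differences in pairs 1, 2 and 3. No pair crosses 0, which follows from choosing the genes on these same pairs and shows nothing further. The pairs of Hes6, Pdk2, Klf5 and Prkci lie close together while those of Adora1, Ifi205 and Gng4 are spread.

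Proliferation genes were not called, and those of the replication and mitosis lists lay mostly below 0. None of 37 DNA replication genes, 42 mitosis genes or 27 cyclins and Cdks passed, with medians of -0.19, -0.28 and -0.10. Below 0 lay 29 (78.4%), 33 (78.6%) and 15 (55.6%) of them, against 49.9% of all genes tested. Mcm2 was at 54.6 to 74.2 CPM in WT and 45.8 to 65.1 CPM in 6S-A, and Ccnd2, cyclin D2, at 914 to 1091 and 848 to 954 CPM. Top2a, a topoisomerase of dividing cells, was at 72.9, 32.9 and 43.7 CPM in WT and 53.5, 41.8 and 19 CPM in 6S-A (-0.40 ± 0.44, adjusted p = 0.915, edgeR), without a common direction over the pairs. Housekeeping groups had medians near 0. The 40 ribosomal protein genes had a median of -0.04 and 42 respiratory chain genes of -0.01, with no call in either. Of these, 31 of 40 (77.5%) and 23 of 42 (54.8%) lay below 0. Cholesterol synthesis, Nrf2, p53, interferon, antigen presentation, Wnt, E protein and stress response lists, of 9 to 38 genes tested each, also held no call. In that order, 19 of 25, 20 of 28, 16 of 22, 12 of 34, 8 of 19, 23 of 38, 2 of 9 and 16 of 25 members lay below 0.

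**Figure D4:**
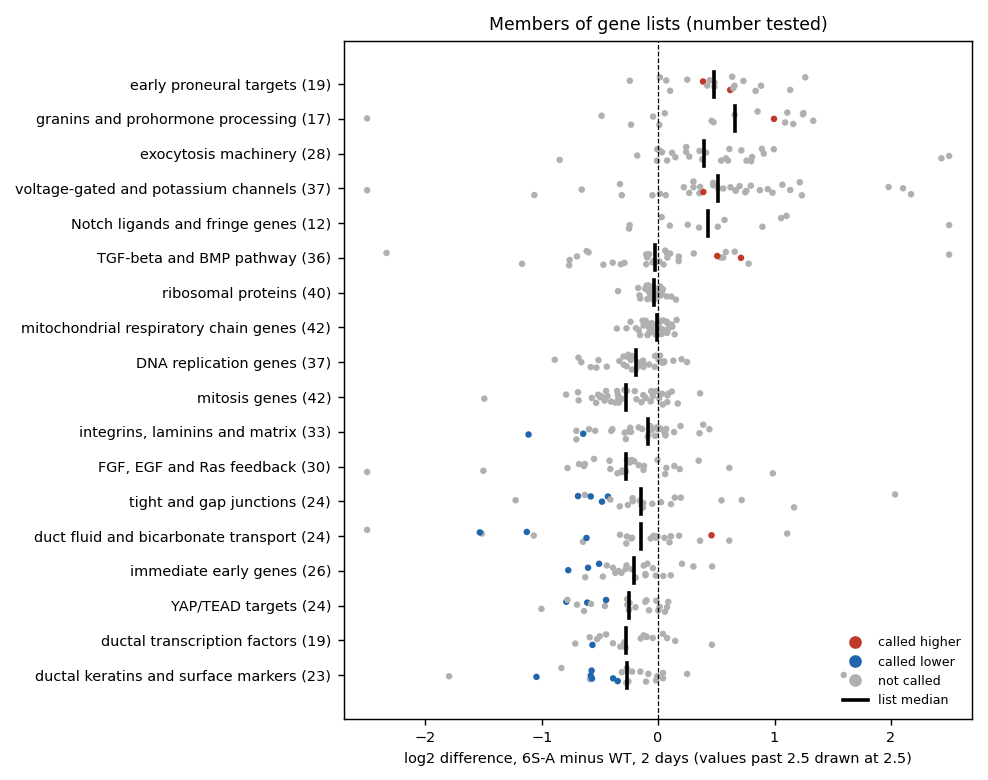
Log2 difference between 6S-A and WT Ngn3 at 2 days (horizontal axis) for every tested member of 18 gene lists, with called genes in color, thick black lines at list medians and the dashed line at the median of all genes; numbers in brackets are genes tested, and values past 2.5 are drawn at 2.5. Ductal, junction, immediate early and YAP/TEAD lists hold blue points, and duct transport also 1 red point, while the medians of the endocrine and channel lists lie to the right of 0 with few red points.

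After 8 days no gene was called between 6S-A and WT Ngn3 out of 19696 tested (0%) with edgeR, 551 had an unadjusted p under 0.05, and DESeq2 called 20. The 8-day groups were smaller, with 4 WT libraries that passed the quality limits and 6 of 6S-A, in 3 replicates each, and 1 replicate of each was at passage 5. In these separate libraries, 40 of the 50 genes higher at 2 days lay above 0, against 49.1% of all genes with a value at both times, and 85 of 96 lower genes lay below 0, against 50.9%. The median log2 differences at 8 days were 0.32 for the higher and -0.37 for the lower genes, a description with no test, since genes measured in the same libraries are not independent. At an unadjusted p under 0.05, 6 of the 50 were higher and 12 of the 96 lower at 8 days. Pcsk1 (1.67), Gng4 (2.46), Sorcs2 (2.49) and Ankrd1 (-0.91) were as large or larger on the log2 scale at 8 days, whereas Krt18 (-0.02), Pik3ap1 (-0.04) and Flnc (-0.65) were near 0 or on the other side. The difference between the days, tested in 1 model over 19589 genes with edgeR, gave no call (0%), with 547 genes at an unadjusted p under 0.05.

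**Figure D5:**
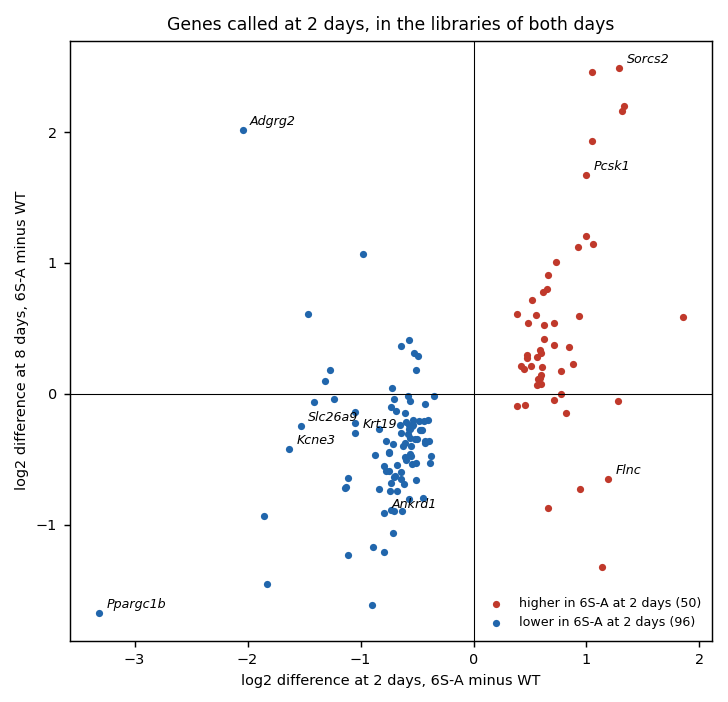
Log2 difference between 6S-A and WT Ngn3 at 8 days (vertical axis) against that at 2 days (horizontal axis) for the 146 genes called at 2 days that had a value at 8 days; the days come from separate libraries. Points fall mostly in the lower left (85 of 96 blue) and upper right (40 of 50 red), and Adgrg2 and Flnc are among those on the other side.

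The promoters of called genes were searched for E-boxes and a TEAD motif, and those of the called list members that hold CAGATG, an E-box form bound by neurogenins, are shown. A RefSeq promoter of 300 bases (250 before to 50 after the start) was at hand for 42 higher and 70 lower genes and for 13412 genes tested. CAGATG, on either strand, stood in 10 of the 42 (23.8%), in 13 of the 70 (18.6%) and in 15% of all. CAGCTG, another E-box, stood in 14.3%, 17.1% and 18.8%, and GGAATG, the motif of TEAD factors, on either strand in 28.6%, 24.3% and 15.2%. CANNTG, which includes both E-boxes and reads the same on both strands, stood in 61.9%, 72.9% and 69.4%. A gene counted once if any of its promoters held the motif, and a gene had up to 26. A match is a description of the letters and not a bound site. The sequences are from GRCm38.p6, 5′ to 3′ along the gene, with each CANNTG in capitals; Cbfa2t3 and Gng4 were higher and Muc1 and Cldn2 lower in 6S-A.
Cbfa2t3 promoter, chr8:122699060-122699359, minus strand: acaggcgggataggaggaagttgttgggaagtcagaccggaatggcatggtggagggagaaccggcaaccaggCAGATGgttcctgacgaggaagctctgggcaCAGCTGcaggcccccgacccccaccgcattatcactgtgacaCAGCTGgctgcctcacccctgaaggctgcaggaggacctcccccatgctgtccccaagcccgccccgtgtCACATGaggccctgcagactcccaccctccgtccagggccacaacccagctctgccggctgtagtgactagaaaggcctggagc
Gng4 promoter, chr13:13783809-13784108, plus strand: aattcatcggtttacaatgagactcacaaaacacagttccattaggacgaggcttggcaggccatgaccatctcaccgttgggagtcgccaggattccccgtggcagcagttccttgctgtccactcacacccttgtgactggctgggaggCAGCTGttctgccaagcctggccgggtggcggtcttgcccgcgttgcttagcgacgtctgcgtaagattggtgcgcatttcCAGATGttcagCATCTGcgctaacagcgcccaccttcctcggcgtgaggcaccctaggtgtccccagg
Muc1 promoter, chr3:89228806-89229105, plus strand: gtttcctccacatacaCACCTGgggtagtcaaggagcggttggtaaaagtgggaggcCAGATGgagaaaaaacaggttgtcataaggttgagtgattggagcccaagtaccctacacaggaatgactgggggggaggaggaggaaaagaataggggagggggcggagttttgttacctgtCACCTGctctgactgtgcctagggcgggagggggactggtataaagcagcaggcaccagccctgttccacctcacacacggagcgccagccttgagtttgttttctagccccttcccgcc
Cldn2 promoter, chrX:139800558-139800857, plus strand: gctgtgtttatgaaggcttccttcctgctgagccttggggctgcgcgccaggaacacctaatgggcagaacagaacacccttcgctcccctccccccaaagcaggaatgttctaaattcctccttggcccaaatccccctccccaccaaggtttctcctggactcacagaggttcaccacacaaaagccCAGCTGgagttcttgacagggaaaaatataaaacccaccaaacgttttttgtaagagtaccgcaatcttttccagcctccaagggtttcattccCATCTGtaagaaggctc

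Counting was not stated to use strand, and 46 of the 147 called genes share exonic bases with another annotated gene. Of the genes named above these include Adora1, Anxa3, Atp1b1, Cbfa2t3, Cldn3, Dusp1, Kcne3 and Kcnk1. Reads in the shared bases may have been left out as ambiguous or may stem from the partner gene, since the counting settings are not given. In pools of sorted cells, fewer cells with a transcript and less transcript per cell cannot be told apart. Leaving out single replicates changed the number of calls: it was 48, 63 and 190 without WT replicate 1, 2 and 3, and 30, 142 and 65 without 6S-A replicate 1, 2 and 3. Of the 147 genes, 38, 54 and 94 stayed called in the first set of fits and 23, 91 and 48 in the second, and all 147 kept their direction. Since 146 of them had 1 direction in all 3 pairs, leaving out a replicate could reverse few, and the kept direction is not separate evidence.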

How the data were processed

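Smart-seq2 libraries of sorted 50-cell pools were sequenced by the authors as single-end reads, aligned with GSNAP to mm10 and assigned to Ensembl genes with HTSeq (0.5.3p3), per the labels and the study's methods. The deposited values are raw read counts per gene and library. Of the reads in the 36 libraries, 16.3% fell in no gene, 7.77% were ambiguous and 23.3% were not aligned; these rows and the 92 spike-ins were left out. Limits set after the study's methods (under 30% spike-ins, over 1000000 reads on genes, over 10000 genes), as applied here, kept 76 of the 77 libraries analysed, and all 36 of this comparison.

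Technical repeats were summed per biological replicate, and genes seen in at least 5 libraries of the day were tested with edgeR 4.0.16 in R 4.3.3 (TMM, quasi-likelihood, robust), with replicate number as a block and GFP only, WT and 6S-A in 1 fit (4 residual degrees of freedom). P-values were adjusted by Benjamini-Hochberg, with a threshold of 0.05. SE was the log2 difference over the square root of F. Levels are CPM with TMM library sizes, and pool values are CPM of reads on genes. On data simulated for this design the fit recovered the known changes; with spread differing between genes as much as in these libraries, the share of unchanged genes among the calls exceeded the threshold.

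The numbers pair replicates in the labels only by number. Deviations from group means correlated by 0.159, 0.0774 and 0.184 in same-numbered WT and 6S-A replicates over all genes, by 0.551, 0.405 and 0.581 over genes of at least 10 CPM, and in others by -0.148 to -0.00149 over all genes and -0.504 to -0.016 over genes of at least 10 CPM. Deviations within a group sum to 0, so positive same-numbered values bring negative ones in the others, which are not separate evidence of pairing. Same-numbered samples are not stated to come from 1 animal or culture, so p-values measure the spread between these samples. Of 90 pairs of technical repeats, 4 were closer than the rest and were counted once as an alternative.

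Named genes were Neurog3 and 7 genes the study follows, the 15 largest called changes in each direction at 1 CPM or more with the same direction in 3 pairs, called members of 42 gene lists, up to 3 abundant examples of lists with fewer than 2 calls, and the 10 smallest p. The ductal markers used to check the cells, and Crisp1 and Ppargc1b, were named outside that rule. Members and lists were chosen with earlier results of these data known. Alternatives were no block, only both Ngn3 groups, other scalings, DESeq2 1.42.0, other filters, the first technical repeat alone and leaving out replicates. The values of 1 ductal gene are not reported here.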

Additional observations from a re-analysis of the deposited data

How the results depend on the processing

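The number of genes called depended on the design more than on the scaling. With other scalings or close technical repeats counted once, between 131 and 166 genes were called at 2 days. Without the replicate block 3 genes were called (2 higher, 1 lower), against 147 (50 and 97) with it. With only WT and 6S-A Ngn3 in the fit, 452 were called (215 higher, 237 lower), with DESeq2 467 (179 and 288), with edgeR's own filter on low counts 88 (29 and 59) and with no filter 661 (270 and 391). With technical repeat 1 alone, 69 were called (13 and 56), of which 9 were among the 147. Leaving out replicates gave 30 to 190 calls in all, 10 to 105 of them higher and 20 to 130 lower. At 8 days DESeq2 called 20 genes and leaving out replicates gave 0 to 3. With and without the replicate block 0 genes were called at 8 days and in the difference between days.

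The alternative fits reused the same libraries. In these, 146 of the 147 called genes had 1 direction in all 3 pairs, so few reversals could arise. The 147 genes kept their direction in every fit that gave them a value (146 of them under edgeR's filter) apart from that on technical repeat 1, where 137 did. Of the called genes named in the text, Nudt10 (-0.58) and St6galnac4 (-0.26) reversed there and Crisp1 stood at 0.00, and, of named genes not called, Neurog3 (-0.39), Neurod1 (-0.18), Atoh8 (-0.0023), Sox9 (0.083) and Spp1 (0.33) lay on the other side of 0. Over the fits that left out replicates Neurog3 ranged from -0.065 to 0.16, Atoh8 from -0.052 to 0.22, Ghrl from -0.38 to 2.34 and Sox9 from -0.22 to 0.018. Of the 30 named genes not called, 7 were called by DESeq2 (Cacna1h, Ehf, Epcam, Hbegf, Hhex, Map1b and Sst), 7 with only WT and 6S-A in the fit and 7 with no filter. The cause of these shifts was not tested.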
